A study of Mus musculus with 12 samples.

Results

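The smooth muscle contractile program was followed through 10 genes in mouse mammary epithelial cells: Acta2, Actg2, Myh11, Mylk, Myl9, Cnn1, Tagln, Cald1, Tpm2 and Oxtr. They were read through every probe set that the array's annotation assigns to exactly 1 of these symbols, 23 of the 34945 probe sets with 1 symbol. Of these 23, 22 were bright enough to be tested. Cells came from female FVB/N mice, an inbred strain, given doxycycline in the chow (2 g/kg) over 7 days, starting when they were 5 weeks old, so that cells were taken at 6 weeks. The p190B group (MMTV-rtTA/TetO-p190B, 6 arrays) carried MMTV-rtTA, a doxycycline-responsive activator driven by the mouse mammary tumour virus promoter, and a TetO transgene encoding p190B with luciferase. The control group (MMTV-rtTA, 6 arrays) carried the activator alone and received the same drug, so neither group shows cells without the activator or the drug. The arrays of a group are labelled biological replicates; the sources used here do not give whether a preparation pooled several mice.

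In the mammary gland these genes mark the myoepithelial cells, the contractile basal layer around ducts and alveoli that squeezes milk out when oxytocin arrives. Oxytocin acts through its receptor, calcium and calmodulin to activate myosin light chain kinase, which phosphorylates the regulatory light chain so that myosin pulls on actin; calponin, caldesmon and tropomyosin sit on the actin filament and tune that pull. Vascular smooth muscle cells and pericytes use most of the same genes. The transgene product p190B is the protein of the gene Arhgap5. The comparison asks whether p190B cells and control cells differ in these transcripts.

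Many smooth muscle genes share the CArG box, the site bound by serum response factor, in their proximal promoters, so the promoter windows were searched for it. RefSeq windows (GRCm38.p6) from 250 bases before to 50 bases after the start were matched for 7 of the 10 genes, in 8 windows; Actg2, Myh11 and Tagln were not matched. The box reads the same on both strands, and matches with 1 G or C among its inner A and T letters were also taken. The following stretches, 5′ to 3′ on the gene's strand with the box in capitals, are the 4 matches, shown because they are what separates Acta2 and Myl9 from the other matched genes in these windows.
Acta2, first match: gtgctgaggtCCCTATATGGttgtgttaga
Acta2, second match: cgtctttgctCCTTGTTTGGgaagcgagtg
Myl9, first match: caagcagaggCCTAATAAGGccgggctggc
Myl9, second match: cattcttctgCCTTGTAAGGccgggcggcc
The Acta2 stretches lie at chr19:34255438-34255467 and chr19:34255388-34255417 on the minus strand, with the box beginning at -84 and -34 from the start. Those of Myl9 lie at chr2:156775293-156775322 and chr2:156775355-156775384 on the plus strand, with the box beginning at -161 and -99. The first Myl9 box is exact and the other 3 have 1 mismatch. An exact box was held by 1.63% of 32851 promoter windows, and a box with at most 1 inner mismatch by 9.98%. No match was found in the windows of Cald1 (2 windows), Cnn1, Mylk, Oxtr and Tpm2, which says only that these letters are not there.

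The preparations carried the transcripts of both epithelial layers. Krt8, a luminal keratin, ran from 38760 to 47661 intensity units over the 12 arrays, and Krt14, the basal keratin that marks the layer holding these genes, from 8342 to 14981. Transcripts of other cells that use contractile genes were present too: Rgs5, a pericyte marker, lay between 13303 and 23639 units, and the skeletal muscle actin Acta1 between 838.9 and 5589. Fibroblast and myofibroblast transcripts were bright as well, the collagen gene Col1a2 lying between 23240 and 40626 units. Of the fixed marker lists, 15 of 16 pericyte and vascular smooth muscle genes and 15 of 17 skeletal muscle genes were bright enough to be tested. In such bulk samples, fewer cells of a type and less RNA per cell cannot be told apart. The labels' own check was not settled: by limma, a linear model test run over all tested probe sets with Benjamini-Hochberg adjustment, 0 of the 4 probe sets for Arhgap5 passed, with log2 differences from -0.32 to 0.41 and adjusted p from 0.258 to 0.925.

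p190B cells and control cells were not told apart by any contractile gene. By limma, 0 of the 22 tested probe sets passed an adjusted p of 0.05, against 10 of 27022 probe sets over the whole array (0.037%). At an unadjusted p under 0.05 there were 2 of 22, beside 9.32% of all tested probe sets, so their share was near the background. The groups overlapped for all 22 (0.877% of all tested probe sets did not overlap). Over the 22 the median log2 difference, p190B minus control, was -0.02, against 0.02 over all tested probe sets, with 14 lower and 8 higher, where 45.1% of all tested probe sets were lower. Differences are given on the log2(intensity + 16) scale.

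**Figure D1:**
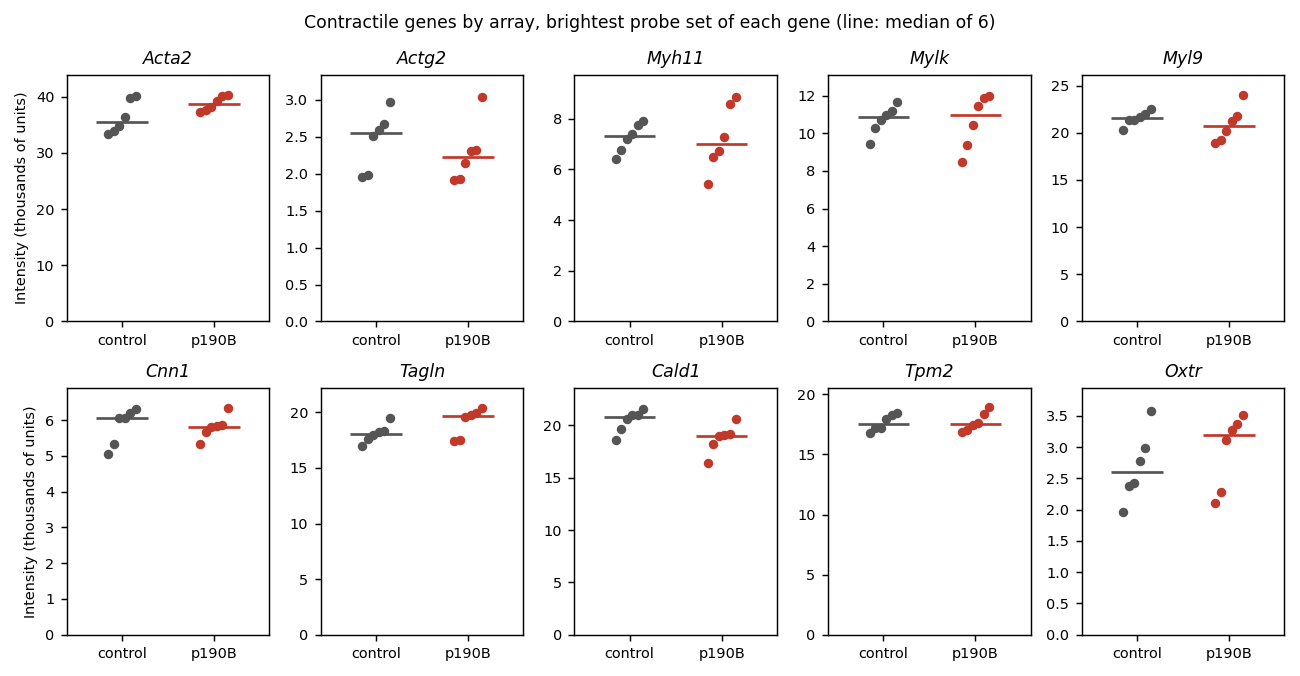
Intensity (in units of 1000, each axis from 0) on the 6 control and 6 p190B arrays for the brightest probe set of each of the 10 genes; points are arrays and lines are group medians. The groups overlap in every panel, most widely spread for Oxtr (1965 to 3576 units in control) and most narrowly for Tpm2 (16744 to 18472 in control).

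The actins came first in the order of the machinery. Acta2, alpha smooth muscle actin of the thin filament, read 33415 units at lowest, 35562 at the median and 40044 at highest in control cells. In p190B cells it read 37346, 38688 and 40330. Control arrays split into 4 between 33415 and 36421 units and 2 near the top of the p190B range, which overlapped them. The groups differed by a log2 value of 0.10 (SE 0.05, 95% interval -0.01 to 0.21; limma adjusted p = 0.599).

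Actg2, the gamma smooth muscle actin best known from the gut wall, ran from 1950 through a median of 2549 to 2971 units in control cells. In p190B cells it ran from 1916 through 2227 to 3040. Each genotype had 2 arrays under 2000 units, and the highest of all was p190B replicate 6. On the log2 scale the difference was -0.11 (SE 0.13, interval -0.38 to 0.17; limma adjusted p = 0.859). Actins are close copies of each other, and a probe set with the suffix _s_at, as for the main Acta2 reading, may take up signal from related transcripts, so their split is uncertain.

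The thick filament and its switch spanned a wider range in p190B cells than in control cells, with medians close together; the ranges were not tested against each other. Myh11, the smooth muscle myosin heavy chain, ran from 6406 through 7300 to 7924 units in control cells and from 5440 through 6996 to 8851 in p190B cells. p190B replicates 1 and 3 were the highest of the 12 and p190B replicate 2 the lowest, so p190B arrays lay on both sides of the control range. Between groups the log2 difference was -0.02 (SE 0.11, interval -0.25 to 0.21; limma adjusted p = 0.976).

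Mylk, the calcium and calmodulin-dependent kinase that switches myosin on, followed the same arrays by its brightest probe set. That probe set ran from 9446 through 10840 to 11657 units in control cells and from 8485 through 10965 to 11974 in p190B cells. p190B replicates 3 and 1 were again highest and p190B replicate 2 lowest, and the log2 difference was -0.02 (SE 0.09, interval -0.21 to 0.16; limma adjusted p = 0.966). Another bright Mylk probe set, 1425505_at, had r 0.31 and rho 0.27 with the brightest and read highest on control replicate 1 (7086 units). Myl9, the regulatory light chain that this kinase phosphorylates, ran from 20328 through 21546 to 22549 units in control cells and from 18874 through 20693 to 23981 in p190B cells. Here p190B replicate 1 was the lowest of the 12 and replicate 6 the highest. The log2 difference was -0.05 (SE 0.06, interval -0.17 to 0.07; limma adjusted p = 0.842).

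Of the proteins that sit on the actin filament, tropomyosin and calponin gave the differences nearest to 0. Tpm2, beta-tropomyosin, ran from 16744 through 17551 to 18472 units in control cells and from 16835 through 17542 to 18909 in p190B cells. The groups lay almost on top of each other, with a log2 difference of 0.01 (SE 0.04, interval -0.09 to 0.10; limma adjusted p = 0.985). Cnn1, calponin, which restrains the myosin ATPase, ran from 5042 through 6057 to 6304 units in control cells and from 5336 through 5816 to 6328 in p190B cells. Its log2 difference was -0.0028 (SE 0.07, interval -0.15 to 0.14; limma adjusted p = 0.994), with control replicates 1 and 4 lowest.

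Tagln, SM22-alpha, an actin-binding protein related to calponin, ran from 16977 through 18079 to 19479 units in control cells. In p190B cells it ran from 17433 through 19658 to 20383. In p190B cells 4 of the 6 arrays lay above every control array, while p190B replicates 1 and 3 lay within the control range. The log2 difference was 0.08 (SE 0.05, interval -0.04 to 0.19; limma adjusted p = 0.700).

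Oxtr, the receptor through which oxytocin triggers contraction, had the widest scatter of the 10 genes by their brightest probe sets. It ran from 1965 through 2609 to 3576 units in control cells and from 2102 through 3191 to 3519 in p190B cells. Both genotypes held low arrays (control replicate 4, p190B replicates 2 and 4) and high ones. The log2 difference was 0.13 (SE 0.15, interval -0.20 to 0.46; limma adjusted p = 0.857), an interval that leaves room for a change in either direction.

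Cald1, caldesmon, which blocks myosin from actin until calcium or phosphorylation releases it, was the member with the smallest p. Its brightest probe set, 1424769_s_at, ran from 18600 through 20773 to 21575 units in control cells and from 16406 through 19003 to 20598 in p190B cells. In p190B cells 2 arrays lay below the control range and 4 within it. The log2 difference was -0.12 (SE 0.06, interval -0.24 to -0.0037; limma adjusted p = 0.518).

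A second Cald1 probe set, 1424768_at, singled out after its values were seen, read less signal in most p190B preparations. It ran from 3516 through 3920 to 4062 units in control cells and from 2374 through 2942 to 3628 in p190B cells. In p190B cells 5 of 6 arrays lay below every control array, a pattern that 1.82% of all tested probe sets showed, and p190B replicate 6 lay inside the control range. The log2 difference was -0.39 (SE 0.09, interval -0.57 to -0.20), and it did not pass over the array (limma adjusted p = 0.155). In the 27 other fits its log2 difference stayed between -0.45 and -0.24, with adjusted p from 0.0731 (without p190B replicate 6) to 0.749.

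**Figure D2:**
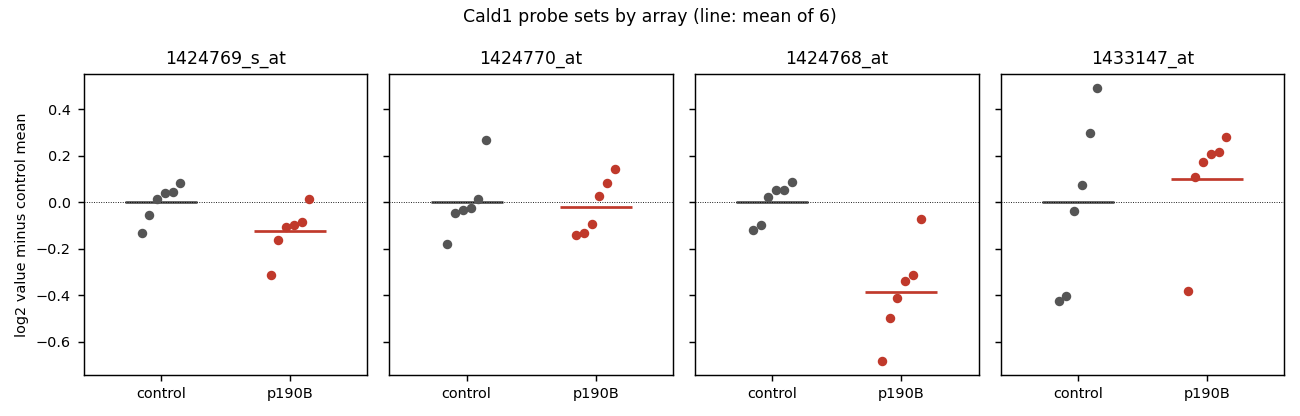
Log2 value minus the control mean for the 4 tested Cald1 probe sets, 1 point per array, with the mean of 6 as a line; the vertical axis is shared. Only 1424768_at has 5 of 6 p190B arrays below all control arrays; 1424770_at (-0.02) and 1433147_at (0.10) differ little on average.

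The other tested Cald1 probe sets had smaller differences. The brightest went the same way, and probe set 1424770_at gave -0.02 (SE 0.08) and the dimmer 1433147_at 0.10 (SE 0.16). The remaining Cald1 probe set, 1433146_at, read at most 70.5 units on any array and was not tested. The log2 ratio of 1424768_at to the brightest probe set of the gene was -2.41 ± 0.15 in control cells and -2.67 ± 0.18 in p190B cells (SD, n = 6 each), 4 of 6 p190B arrays being below all control arrays. An exact two-sided permutation test of this ratio gave p = 0.0130 for a difference of -0.26. It did not pass when adjusted over the 12 such ratios of these genes (adjusted p = 0.156). The sources used here do not give which transcripts or exons of Cald1 each probe set reads.

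The 3′ over 5′ ratios of the array's control probe sets, a sign of RNA quality, had a higher lowest and highest value on p190B arrays; the ranges overlapped and were not tested against each other. For Gapdh the log2 value ran from -0.52 to -0.47 on control arrays and from -0.48 to -0.32 on p190B arrays, and that of Actb from 0.25 to 0.35 and from 0.31 to 0.59. In the Gapdh ratio every p190B array except replicate 5 lay above all control arrays, so this ratio nearly followed genotype. With the Gapdh ratio as a covariate the log2 difference of 1424768_at was -0.26 (limma adjusted p = 0.749), and with the Actb ratio -0.24 (limma adjusted p = 0.317). In the fit with the Gapdh ratio, genotype and ratio could hardly be told apart.

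**Figure D3:**
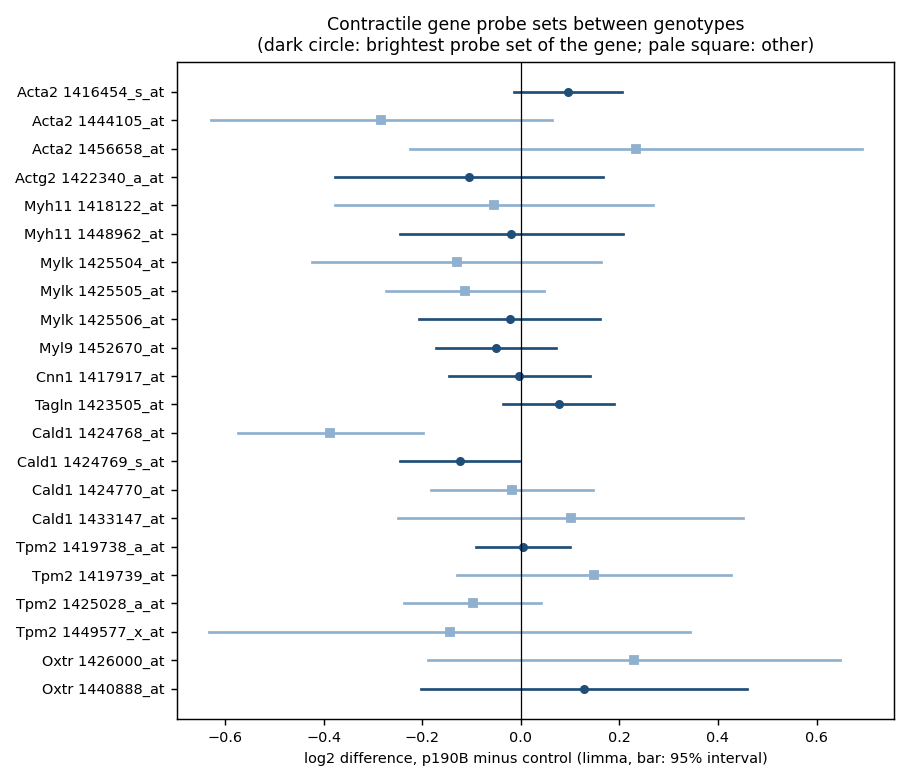
Log2 difference, p190B minus control, with its 95% interval from limma, for the 22 tested probe sets of the 10 genes; dark circles mark the brightest probe set of each gene. For the brightest probe sets the intervals reach from -0.38 (Actg2) to 0.46 (Oxtr), and all but Cald1 reach across 0.

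Where a gene had several probe sets, they seldom ranked the arrays alike. Of the 12 comparisons of a further tested probe set with the brightest one of its gene, the closest was Myh11 1418122_at (r = 0.77, permutation p = 0.00292, adjusted p = 0.0350; Spearman's rho 0.73, permutation p = 0.00875, adjusted p = 0.105). For the others r ran from -0.40 (Acta2 1444105_at) to 0.57 (Cald1 1424768_at), with adjusted p of 0.319 or more. The dim Acta2 probe sets, 1444105_at and 1456658_at, read medians of 278 and 110.6 units in control cells. Their log2 differences were -0.28 (SE 0.16) and 0.23 (SE 0.21), beside 0.10 for the bright one. The other probe sets of Mylk gave -0.11 and -0.13, those of Tpm2 0.15, -0.10 and -0.14, that of Oxtr 0.23 and that of Myh11 -0.05, all with limma adjusted p of 0.691 or more.

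By their brightest probe sets, the genes also differed in how far they varied between preparations, whatever the genotype. Over the 12 arrays the log2 SD was 0.06 for Tpm2, and 1.2% of the 6992 probe sets with a mean at or above 2000 units had a smaller one. It was 0.09 for Tagln and 0.10 for Myl9, Acta2 and Cnn1. It was 0.11 for Cald1, 0.15 for Mylk, 0.19 for Myh11, 0.24 for Actg2 and 0.30 for Oxtr, against a median of 0.14 for those bright probe sets. Oxtr was thus 1.81-fold higher on its highest than on its lowest array, while Tpm2 was 1.13-fold higher, both on the log2(intensity + 16) scale. Other bright probe sets gave other SDs for the same gene. The SD was 0.12 for Tpm2 1425028_a_at, 0.14 for Mylk 1425505_at, 0.25 for Cald1 1424768_at and 0.13 for Cald1 1424770_at. These SDs are descriptions and were not tested against each other.

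The 10 genes did not rise and fall as 1 block across preparations. Each of the 45 pairs was correlated over the 12 arrays, by the brightest probe sets, and 0 passed a permutation test with 100000 draws adjusted over the 45, by Pearson's r or by Spearman's rho. At an unadjusted p under 0.05 there were 9 by Pearson's r. The median r was 0.22, with 31 pairs above 0 and 14 below. The median was 0.49 within the 6 control arrays and 0.18 within the 6 p190B arrays, and 27 of 45 pairs had the same sign in both. These counts were not set against pairs of other genes, so they are not shown to be particular to the contractile genes.

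**Figure D4:**
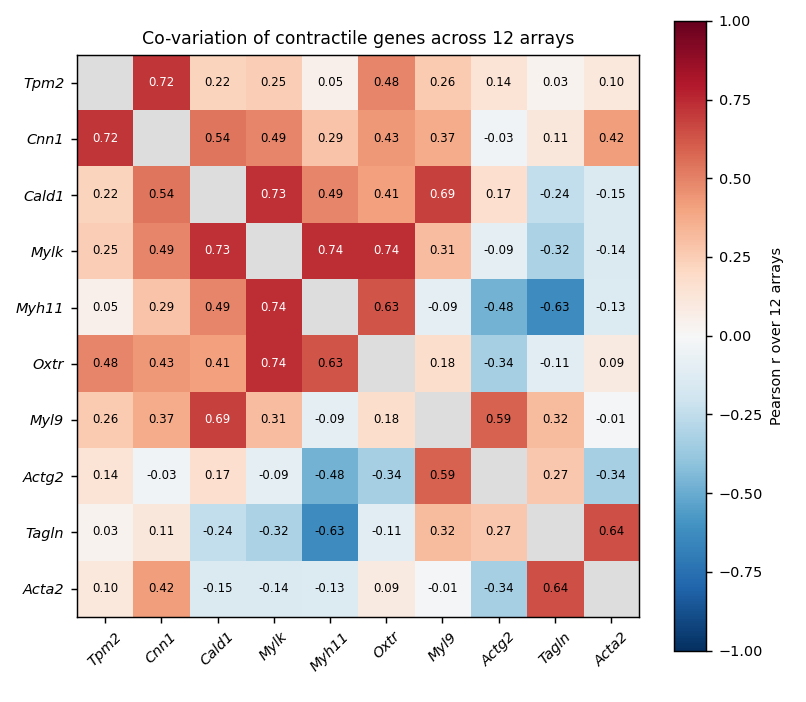
Pearson's r over 12 arrays for each pair of the 10 genes (colour from -1 to 1, the value in each cell), with the genes ordered by hand. Cald1, Mylk, Myh11 and Oxtr form a block with r from 0.41 to 0.74, while Myh11 and Tagln lie at -0.63; none of the 45 pairs passed after adjustment.

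By r the highest correlations were those of Mylk with Myh11 and with Oxtr, and by rho that of Cnn1 with Tpm2 (0.76). For Myh11 and Mylk r was 0.74 and rho 0.70 (permutation p adjusted over 45 pairs 0.103 and 0.102), and r was 0.44 without the 2 arrays farthest from the median of Myh11. Within genotypes r was -0.02 in control and 0.92 in p190B cells, so the relation rested on p190B arrays, replicates 1 and 2 among them. For Mylk and Oxtr r was 0.74 and rho 0.71 (adjusted p 0.103 and 0.102), and 0.62 without the 2 farthest arrays. It was 0.57 in control and 0.92 in p190B cells.

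None of the other pairs passed either. For Mylk and Cald1 r was 0.73 and rho 0.55 (adjusted permutation p 0.103 and 0.253), with 0.83 in control and 0.86 in p190B cells, and 0.30 over the 12 arrays without p190B replicates 2 and 4. For Cnn1 and Tpm2 r was 0.72 and rho 0.76 (adjusted p 0.103 and 0.102), 0.71 in control and 0.81 in p190B cells, and 0.69 without the 2 farthest arrays. For Myl9 and Cald1 r was 0.69 and rho 0.71 (adjusted p 0.125 and 0.102). Its r was 0.87 in control and 0.64 in p190B cells, and 0.83 without the 2 farthest arrays. For Acta2 and Tagln r was 0.64 and rho 0.64 (adjusted p 0.158 and 0.153), and r 0.50 without the 2 farthest arrays. The lowest r was that of Myh11 with Tagln, -0.63 with rho -0.71 (adjusted p 0.158 and 0.102), at -0.18 in control and -0.84 in p190B cells, and -0.55 without the 2 farthest arrays. For Acta2 and Myl9, which alone among the matched genes had CArG boxes in their windows, r was -0.01 and rho 0.06. Their r was 0.43 in control and 0.04 in p190B cells, and -0.15 without the 2 farthest arrays. A link between the boxes and co-variation was not tested.

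How arrays are scaled changed these counts. With every array scaled to the same median, 5 pairs passed (Cnn1 and Tpm2 at r 0.92, and Myh11 and Mylk, Mylk and Cald1, Myl9 and Cald1, Cnn1 and Cald1) and the median r was 0.48. With each genotype centred on its own mean, Mylk and Cald1 passed (r 0.84, adjusted p = 0.0274). Leaving out any 1 array gave 0 pairs, and without p190B replicate 6, the array with the highest mean of the 10 genes, the median r was 0.07.

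Against the marker lists, the contractile genes went separate ways. Each of the 10 genes, by its brightest probe set, was correlated over 12 arrays with the mean log2 value of 7 lists, 70 relations in all. The share of other genes with such relations was not computed. The counts are therefore not shown to be particular to the contractile genes. By Pearson's r 0 passed after adjustment over the 70 (12 at an unadjusted p under 0.05), and by Spearman's rho 6 passed. Of those 6, 3 passed by rho with each genotype centred on its own mean (Myh11 with basal, Actg2 with endothelial and Mylk with lymphocyte markers), and 1 with quantile normalisation (Myh11 with basal markers, adjusted permutation p = 0.0035), where the other 5 had an adjusted p of 0.0506. Myh11 was high on arrays with high basal epithelial markers, a list that holds none of the 10 genes, with r 0.81 (permutation p = 0.00138, adjusted 0.0884) and rho 0.92 (permutation p = 1e-04, adjusted 0.0070). It held at 0.92 within control cells, 0.85 within p190B cells and 0.79 without the 2 arrays farthest from the list's median.

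For Oxtr and the luminal epithelial markers r was 0.78 (permutation p = 0.00353, adjusted 0.0884) and rho 0.83 (permutation p = 0.00151, adjusted 0.0352). The rho did not pass with genotypes centred (adjusted permutation p = 0.0749) or with quantile normalisation (adjusted p = 0.0506). Within genotypes r was 0.95 in control and 0.57 in p190B cells, and it was 0.63 without the 2 farthest arrays. Its r with the basal list was 0.66 (permutation p = 0.0195, adjusted 0.170), with rho 0.60 (adjusted 0.227), and 0.40 without the 2 farthest arrays. The basal and luminal lists themselves had r 0.72 (permutation adjusted p = 0.0579 over 21 list pairs) and rho 0.69 (adjusted 0.0809). For Myh11 and the luminal list r was 0.71 (permutation p = 0.00949, adjusted 0.111) and rho 0.78 (p = 0.00373, adjusted 0.0455), and r was 0.73 without the 2 farthest arrays. Here too the rho did not pass with genotypes centred (adjusted permutation p = 0.0570) or with quantile normalisation (adjusted p = 0.0506).

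Actg2 had its highest r with vessel genes. With the endothelial list r was 0.78 (permutation p = 0.00379, adjusted 0.0884) and rho 0.78 (p = 0.00381, adjusted 0.0455), with 0.94 in control cells, 0.60 in p190B cells and 0.71 without the 2 farthest arrays. The rho passed with genotypes centred (adjusted permutation p = 0.0091) and did not with quantile normalisation (adjusted p = 0.0506). With the pericyte and vascular smooth muscle list r was 0.71 (permutation p = 0.0121, adjusted 0.121) and rho 0.76 (adjusted 0.0541), and r was 0.75 without the 2 farthest arrays. These lists moved together, with r 0.94 between them (permutation adjusted p = 0.00105). With the basal list Actg2 had r -0.42 and rho -0.46, which did not pass (adjusted p = 0.514 for r). With the luminal list it had r -0.59 (permutation p = 0.0448, adjusted 0.278) and rho -0.60 (adjusted 0.227). With the Actb 3′ over 5′ ratio it had r -0.62 (permutation p = 0.0213, adjusted 0.213). The luminal and endothelial lists had r -0.64 between them (permutation adjusted p = 0.118). The mean of the pericyte list ran from 10.42 to 10.93 (log2) on control arrays and from 10.34 to 10.88 on p190B arrays.

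Mylk and Myh11 had negative correlations with the lymphocyte markers, which passed by rho in the main setting alone for Myh11. With the lymphocyte list Mylk had r -0.74 (permutation p = 0.00641, adjusted 0.105) and rho -0.86 (p = 0.00074, adjusted 0.0259), and r was -0.48 in control cells, -0.85 in p190B cells and -0.67 without the 2 farthest arrays. Myh11 had r -0.72 (permutation p = 0.00749, adjusted 0.105) and rho -0.78 (p = 0.0039, adjusted 0.0455), at -0.24 in control and -0.90 in p190B cells, and -0.85 without the 2 farthest arrays. With genotypes centred the adjusted permutation p of rho was 0.0387 for Mylk and 0.118 for Myh11, and with quantile normalisation it was 0.0506 for both. Tagln had the opposite sign, r 0.59 (permutation p = 0.0477, adjusted 0.278) with rho 0.55, and did not pass. The lymphocyte mean ran from 7.24 to 10.52 (log2) on control arrays and from 6.79 to 10.60 on p190B arrays. Among its 12 tested markers the lowest reading was 14.3 units, on a p190B array. The lymphocyte mean had r -0.80 with the basal list (permutation adjusted p = 0.0190) and -0.64 with the luminal list (adjusted 0.118). Pairs of contractile genes past the threshold numbered 0 of 45 both before and after the lymphocyte mean was taken out of every gene. A count already at 0 could not fall, so it does not show what the lymphocyte mean contributes.

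**Figure D5:**
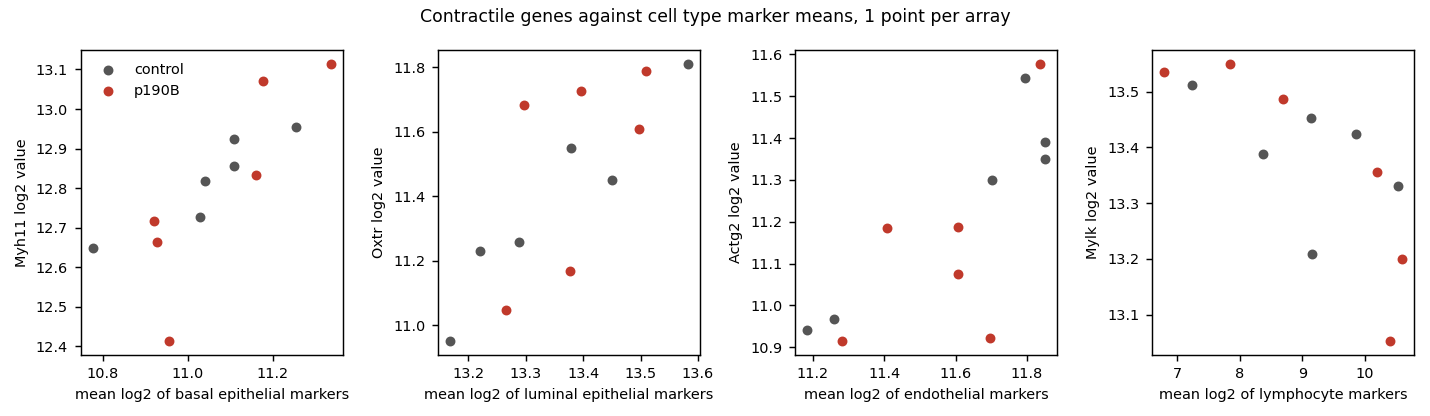
Log2 value of Myh11, Oxtr, Actg2 and Mylk (vertical) against the mean log2 value of the basal, luminal, endothelial and lymphocyte marker lists (horizontal), 1 point per array, control in grey and p190B in red. The first 3 panels rise (r 0.81, 0.78 and 0.78) and the last falls (r -0.74), with both genotypes mixed along each trend.

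None of the 70 relations was between a contractile gene and skeletal muscle markers at an adjusted p under 0.05. Their mean ran from 8.17 to 9.91 on control arrays and from 8.05 to 10.06 on p190B arrays. Acta2 had r -0.25 with that list and Actg2 0.19. For the fibroblast and myofibroblast list r ran from -0.32 (Oxtr) to 0.27 (Acta2), and none of its relations passed by r or by rho. With the Actb and Gapdh 3′ over 5′ ratios, 0 of 20 relations passed, the largest being Myl9 with the Gapdh ratio (r -0.66, permutation p = 0.0198, adjusted 0.213; rho -0.59, adjusted 0.355).

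Other genes of the contractile apparatus did not pass either. Of 19 tested genes among the 20 fixed for it, 0 passed over the array by limma, 0 had an unadjusted p under 0.05, and the median log2 difference was -0.05. Synm, the intermediate filament protein synemin, gave -0.31 (SE 0.14, limma adjusted p = 0.538), and Fermt2, kindlin-2 of the cell's adhesions, 0.13 (SE 0.07, adjusted p = 0.596). Desmin (Des) gave 0.00 (SE 0.12) and smoothelin (Smtn) 0.05 (SE 0.12). All 19 had a positive r with the mean z-score of the 10 genes, with a median of 0.33, where 50.1% of 12760 other genes did; Csrp1, a LIM protein of the actin cytoskeleton, was highest at 0.62 and tropomyosin 1 (Tpm1) next at 0.58. These are described with no test.

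Genes that signal to the contractile machinery held 4 of 22 with an unadjusted limma p under 0.05 (9.32% over the array), and 0 of 22 passed after adjustment. Ppp1cb, the catalytic subunit of myosin phosphatase, gave -0.22 (SE 0.05, limma adjusted p = 0.168). The list's median was -0.02, with 10 higher and 12 lower.

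Regulators of the program were present and also did not pass. Of 18 tested genes around serum response factor and myocardin, 0 passed and 2 had an unadjusted limma p under 0.05, with a median log2 difference of -0.07, beside 9.32% of all tested probe sets at that p. Klf4, which represses smooth muscle genes in vessel walls, gave -0.20 (SE 0.05, limma adjusted p = 0.251), and Mrtfa, an actin-sensing coactivator of serum response factor, 0.31 (SE 0.11, limma adjusted p = 0.406). Srf itself gave -0.10 (SE 0.12), with medians of 3384 units in control and 3005 in p190B cells. Myocd, the cofactor of serum response factor in heart and smooth muscle, read medians of 134.2 and 118.0 units, close to the lower limit for testing of 101.0 units, and gave -0.29 (SE 0.18).

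The cell type lists beside them gave 0 calls as well; over all tested probe sets 9.32% had an unadjusted limma p under 0.05 and 45.1% were lower in p190B cells. Of the basal epithelial markers, 3 of 17 had an unadjusted limma p under 0.05, among them Lamb3, a laminin-332 chain (0.35, SE 0.12, adjusted p = 0.384), and Wif1, a secreted Wnt inhibitor (-0.40, SE 0.14, adjusted p = 0.406). Of the luminal markers, 5 of 17 did, and the smallest p belonged to genes that went opposite ways. Cdh1, E-cadherin, was lower (-0.48, SE 0.13, adjusted p = 0.233), and Elf5, an alveolar fate factor, was higher (0.29, SE 0.09, adjusted p = 0.355). The luminal list had 12 higher and 5 lower, with a median of 0.05, and the basal list 7 higher and 10 lower, with a median of -0.02. Among pericyte and vascular smooth muscle markers 11 of 15 were lower, with a median of -0.13 and 0 at an unadjusted p under 0.05; Sncg gave -0.23 (SE 0.14) and Rgs4, a regulator of G protein signalling, -0.21 (SE 0.14). Fibroblast markers had a median of 0.16 with 13 of 15 higher and 1 at an unadjusted p under 0.05, the collagen gene Col1a2 (0.21, SE 0.09), followed by Col5a1 (0.27, SE 0.17). Skeletal muscle (median -0.09), endothelial (-0.02) and lymphocyte (-0.01) markers had 0 at an unadjusted p under 0.05. Their smallest p belonged to Myh1 (-0.31, SE 0.28) and Atp2a1 (-0.30, SE 0.33), to Tek (-0.18, SE 0.13) and Emcn (-0.11, SE 0.11), and to Cd8a (0.44, SE 0.59) and Ighm (0.34, SE 0.65).

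Across the arrays, the genes whose pattern was most like the mean z-score of the 10 contractile genes were chosen on that likeness and are given as a description. Over 12 arrays they were Tpd52l1 (r 0.94), Slc25a25, a mitochondrial ATP-Mg and phosphate carrier (0.93), Fstl3, a secreted binder of activin (0.90), Def8 (0.84), Nat8f1 (0.79), Aopep (0.79), Dync1li2, a dynein light intermediate chain (0.78), and Syap1 (0.78). The r at the 99th percentile of the 12760 genes compared was 0.62. Without the 2 arrays farthest from the median of the mean z-score, r was 0.88 for Tpd52l1 and 0.60 for Nat8f1. By limma their log2 differences between genotypes ran from -0.10 for Aopep to 0.03 for Dync1li2, with adjusted p of 0.746 or more. The mean z-score itself was highest on p190B replicate 6 (1.00) and lowest on control replicate 1 (-0.80), and the ranges of both genotypes overlapped.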

How the data were processed

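The authors' deposited table holds 1 linear intensity per probe set for 12 single-colour Affymetrix arrays hybridised with biotinylated cRNA, per the labels' protocols. The submitters' processing notes name MAS5 without a version. The 2% trimmed mean is the same on every array (1000 units) while medians run from 187.6 to 211.5, so scaling leaves small array-wide differences in most probe sets. Probe set names come from the platform annotation. Intensities were used as log2(value + 16), and 27022 of 45037 probe sets at or above the 40th percentile of mean log2 (about 101.0 units) entered a two-sided limma test (version 3.58.1, R 4.3.3; linear fit, moderated with an intensity trend), with Benjamini-Hochberg adjustment over all of them. Arrays have no read depth, and their number, 6 per group, limits the precision. Gene-level values use the brightest probe set.

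All probe sets of the members are named; from other lists, those past the threshold or otherwise the 2 with the smallest p, of which 1 is not reported here (Acta1, Krt8, Krt14, Rgs5, Des, Smtn, Srf, Myocd, Csrp1 and Tpm1 were added after their values were seen); and the 8 genes with the highest r with the members' mean z-score. Correlations used permutation tests with 100000 draws. Exact permutation of the probe set ratios, the SDs and the 3′ over 5′ correlations were added after seeing the data. The members and lists were chosen with earlier results of these data known. The limma and correlation steps were tested on simulated data. Python 3.11.15 and matplotlib 3.10.9 served for correlations and plots.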

Additional observations from a re-analysis of the deposited data

Results flagged for a closer look

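Among 44 groups of 6 arrays (22 probe sets in 2 genotypes), 1 held an array far from the rest: Cald1 1433147_at on p190B replicate 4 read 411.4 units, below the other p190B arrays. Chance gives about 1 in 20 such groups.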

How the results depend on the processing

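The count of contractile probe sets past the threshold was 0 in all 27 other fits. Over all probe sets the count was 10, and 5 without a filter, 17 with a filter at the 60th percentile, 28 with quantile normalisation, 4 with equal medians, 3 without trend, 19 with array weights, 1 with the Actb ratio and 0 with that of Gapdh in the fit (by limma, 1802 at an unadjusted p under 0.05 for the latter), 24 with the lymphocyte and 6 with the skeletal muscle mean as a covariate, 5 without p190B replicates 1 and 3, and 4 to 9 without any 1 array. Pairs of contractile genes past the threshold numbered 0, and 5 with equal medians, 1 with genotypes centred, 1 on skeletal muscle residuals, 1 on Gapdh ratio residuals, 2 without p190B replicates 1 and 3, and 0 without any 1 array. Of the 70 list relations 6 passed by Spearman's rho, 3 with genotypes centred and 1 with quantile normalisation, both checked by rho after seeing the data. With quantile normalisation 3 passed by Pearson's r (Myh11 with basal, Myl9 with pericyte and Oxtr with luminal markers).

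With the replicate number as a block the limma count over all probe sets was 0 (2287 at an unadjusted p under 0.05) and 2 gene pairs passed (Myh11 with Mylk and with Oxtr). The numbers were not taken to pair the arrays: same-numbered arrays' deviations correlated between -0.29 and 0.41, and 2 of 12 arrays correlated best with their own number.

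Among the brightest probe sets, changes of sign came only where the difference in the main fit was smaller than its SE. Actg2, at -0.1051 in the main fit, was 0.0972 with the Actb ratio, 0.0294 with that of Gapdh and 0.0074 when p190B replicates 1 and 3 were left out. Myl9, at -0.051 in the main fit, was 0.0071 with the Actb ratio and 0.1007 with that of Gapdh. Cnn1 was 0.013 with quantile normalisation and 0.001 with the skeletal muscle mean, and Tpm2 was -0.0262 with equal medians. Without any 1 array Myh11 ran from -0.0817 to 0.0584, Mylk from -0.0598 to 0.0394, Cnn1 from -0.0436 to 0.0211 and Tpm2 from -0.0143 to 0.0192. The causes were not tested.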
